A study of Mus musculus with 21 samples.

Results

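The platelet-derived growth factor (PDGF) family comprises 4 ligand genes, Pdgfa, Pdgfb, Pdgfc and Pdgfd, and 2 receptor genes, Pdgfra and Pdgfrb. These 6 genes were taken by symbol from the 22180 genes of the array table that carried a single symbol. Each of the 6 was represented by 1 row, so no choice among rows was needed, and none was removed by a filter on low values.

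Cells were osteoblasts cultured from the calvaria (skull bones) of C57BL/6J mice aged 7 to 10 days. They were used at passage 2, differentiated from day 3, and kept in serum-free medium for 24 h from day 10 before a 4 h treatment. RNA was measured on 21 Affymetrix Mouse Gene 2.0 ST arrays, 3 for each of 7 groups, and the labels describe the 3 cell preparations of a group as independent. The number of animals behind a preparation is not given in the sources used here.

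The reference group received vehicle, and all other groups received a peptide of parathyroid hormone (PTH) in the same medium. Human PTH(1-34), human PTH(1-31) and PTH(1-36), written hPTH(1-34), hPTH(1-31) and PTH(1-36), begin at residue 1 and are called intact analogs here. Bovine PTH(3-34) and human PTH(7-34), written bPTH(3-34) and hPTH(7-34), start further in and are called truncated. These 5 peptides were given at 100 nM. The bovine peptide (D-Trp12,Tyr34)-PTH(7-34) amide, written bPTH(7-34), is also truncated but was given at 1000 nM, so it was compared with vehicle only. The species of PTH(1-36) is not given in the labels.

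PDGF chains form dimers that bring receptor chains together at the cell surface, and the paired receptors then phosphorylate each other on tyrosine. The alpha receptor binds the A, B and C chains, and the beta receptor binds the B and D chains. The C and D chains are secreted in a latent form that proteases must cut. In bone and other connective tissue these signals are best known for driving division and migration of mesenchymal cells, and the beta receptor also marks pericytes and vascular smooth muscle.

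Values are deposited RMA signals, a summary of probe brightness that was read here as log2, so a difference of 1 is a doubling. Differences were tested with limma, and a gene was called when its p-value, Benjamini-Hochberg adjusted over 22180 genes, was under 0.05. Array medians lay between 3.49 and 3.61 and correlations between arrays of a group between 0.990 and 0.993. Of genes that define osteoblasts, Col1a1 (13.25 in vehicle) and Alpl (8.93) were high, whereas the late osteoblast gene Bglap was near the array median at 3.73. Genes of macrophages were also high in vehicle, Lyz2 at 12.22 and Csf1r at 10.20, while the endothelial genes Pecam1 and Cdh5 were at 3.66 and 4.83. These are bulk signals, so fewer cells of a type and less RNA per cell cannot be told apart.

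Pdgfrb fell with all 3 intact analogs, to 55.1% to 56.1% of vehicle, and did not pass the test with any truncated one. Pdgfra was 0.21 to 0.25 higher on the log2 scale with the intact analogs and passed the test with PTH(1-36) alone. Among the ligands, Pdgfa fell by 0.30 with hPTH(1-34), and no other ligand passed the test of a single analog against vehicle. In the limma F test over the 6 contrasts with vehicle, 4 of 6 members were called (Pdgfa, Pdgfb, Pdgfra and Pdgfrb), against a background of 12.2% of all genes. The adjusted p of that test was 1.08e-07 for Pdgfrb, 0.0168 for Pdgfb, 0.0305 for Pdgfa, 0.0339 for Pdgfra, 0.102 for Pdgfd and 0.152 for Pdgfc. The call of Pdgfra was lost when any 1 of 13 of the 21 arrays was left out, and that of Pdgfa without any 1 of 8. The members were chosen with earlier results of these data known, and the background also holds dim genes. In mean signal the 6 members lay from the 63.4th to the 98.8th percentile of all genes. An excess of member counts over shares of all genes, here and below, therefore cannot be read as a result about the family.

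**Figure D1:**
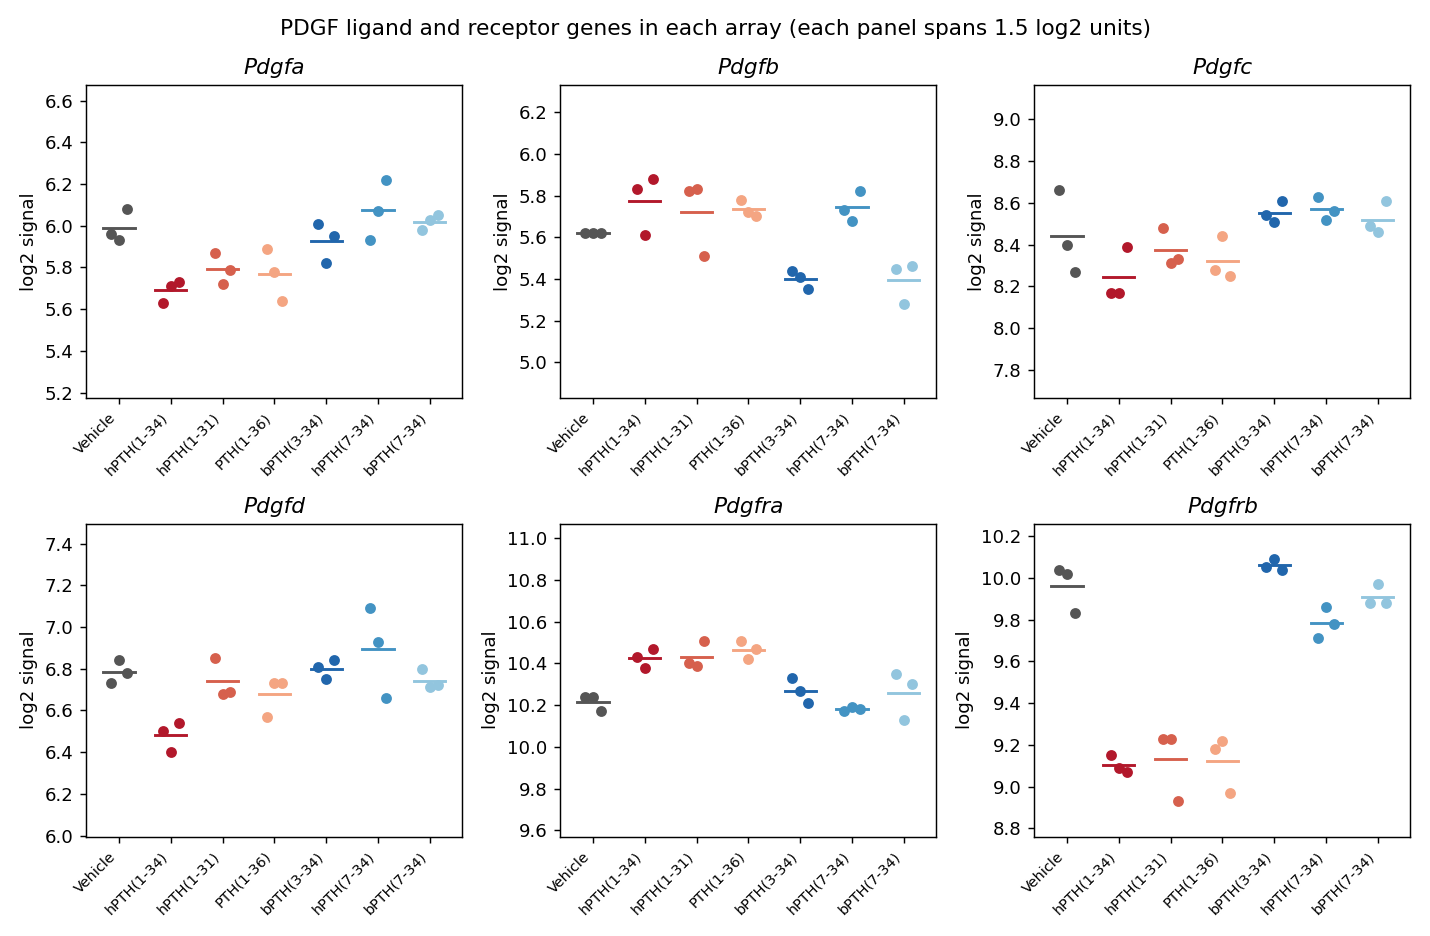
Log2 signal (y axis) of each PDGF ligand and receptor in every array, by treatment group (x axis); points are the 3 arrays of a group and bars the group means. The 9 Pdgfrb points of the intact analogs sit between 8.93 and 9.23, below all others, which start at 9.71.

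Promoter sequence is shown for 2 of the genes because Pdgfra and Pdgfa were the members besides Pdgfrb that were called against vehicle. The sequences are RefSeq's, build GRCm38.p6, and give the 250 bases before a start site, 5′ to 3′ on the strand of the gene. The promoter table matched 4 of the 6 members with 5 entries, Pdgfa having 2. It held no entry for Pdgfb or Pdgfrb, so the promoters of these genes were not read. Capitals mark the letters TGACG, or its reverse complement CGTCA, the core of the element bound by cyclic AMP-responsive factors. The Pdgfra entry lies at chr5:75152001-75152250 on the plus strand, and its match starts 218 bases before the start site.
Pdgfra: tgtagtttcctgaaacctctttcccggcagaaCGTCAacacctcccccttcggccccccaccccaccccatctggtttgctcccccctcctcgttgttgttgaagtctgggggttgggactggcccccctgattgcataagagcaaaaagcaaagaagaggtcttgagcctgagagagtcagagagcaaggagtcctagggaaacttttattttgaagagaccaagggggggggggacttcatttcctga
The Pdgfa entry with a match lies at chr5:138994945-138995194 on the minus strand, and its match starts 205 bases before the start site.
Pdgfa: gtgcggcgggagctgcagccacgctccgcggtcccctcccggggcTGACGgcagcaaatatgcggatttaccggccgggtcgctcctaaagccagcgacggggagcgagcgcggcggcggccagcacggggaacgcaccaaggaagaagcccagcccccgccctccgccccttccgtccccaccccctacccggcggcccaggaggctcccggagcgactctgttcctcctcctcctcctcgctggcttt

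In windows of 300 bases, which add 50 bases after the start site, TGACG on either strand was found in 3 of the 5 entries. These were the Pdgfa entry shown above and the entries of Pdgfd and Pdgfra. The Pdgfd match starts at base 5 after the start site. TGACG on either strand was found in 20.8% of all 32851 promoters of that length. The full palindrome TGACGTCA, which contains the shorter motif, was in 0 of the 5 entries and in 1.79% of all promoters. The GC box GGGCGG, on either strand, was found in both Pdgfa entries and in 35.7% of all promoters, and CCAAT, on either strand, was in none of the 5 entries and in 37.4% of all. These matches describe letters in the window, and binding was not measured.

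Among the ligands, Pdgfa encodes the A chain, which acts through the alpha receptor. Its signals were 5.96, 5.93 and 6.08 in vehicle and 5.63, 5.71 and 5.73 with hPTH(1-34). They were 5.87, 5.72 and 5.79 with hPTH(1-31), and 5.89, 5.78 and 5.64 with PTH(1-36). All 9 arrays of the intact analogs lay below the lowest vehicle array. With the truncated analogs the signals were 6.01, 5.82 and 5.95 for bPTH(3-34), 5.93, 6.07 and 6.22 for hPTH(7-34), and 5.98, 6.03 and 6.05 for bPTH(7-34), which overlapped vehicle. Against vehicle Pdgfa fell by 0.30 ± 0.09 (SE) with hPTH(1-34), with a limma adjusted p of 0.0453. This call sat close to the threshold: it was lost when any 1 of the 6 arrays compared was left out, with adjusted p from 0.0662 to 0.155. The differences were -0.20 with hPTH(1-31) (adjusted p = 0.233) and -0.22 with PTH(1-36) (adjusted p = 0.175), which did not pass. The order of the group means ran from hPTH(7-34) at 6.07 to hPTH(1-34) at 5.69, and every pair of neighbours in it overlapped.

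Pdgfb encodes the B chain, the ligand that binds both receptors. Its deposited signal was 5.62 in each of the 3 vehicle arrays. It was 5.83, 5.61 and 5.88 with hPTH(1-34), 5.82, 5.83 and 5.51 with hPTH(1-31), and 5.78, 5.72 and 5.70 with PTH(1-36). The PTH(1-36) arrays were all above vehicle, and the other intact groups had 1 array each below it. Signals were 5.44, 5.41 and 5.35 with bPTH(3-34) and 5.45, 5.28 and 5.46 with bPTH(7-34), whereas with hPTH(7-34) they were 5.73, 5.68 and 5.82. All 6 arrays of the bovine peptides therefore lay below all others in the study, and the hPTH(7-34) arrays lay above vehicle. This separation of the bovine arrays was seen in the values, and its share over all genes was not computed. Both bovine differences from vehicle were -0.22 ± 0.09 (SE) and did not pass the limma test, with adjusted p of 0.795 for bPTH(3-34) and 0.929 for bPTH(7-34). Signals lower than vehicle in 3 of 3 arrays were found in 5.18% of all genes with bPTH(3-34) and in 4.62% with bPTH(7-34). The differences of the intact analogs were +0.15, +0.10 and +0.11, with adjusted p from 0.419 to 0.657.

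Pdgfc encodes the C chain, one of the ligands that needs cutting, and acts through the alpha receptor. It ranged from 8.17 to 8.66 over all 21 arrays. The vehicle arrays read 8.66, 8.40 and 8.27, the widest spread of vehicle among the 6 genes (SD 0.20), and every treated group overlapped them. Group means ran from 8.57 with hPTH(7-34) to 8.24 with hPTH(1-34), and all neighbours in that order overlapped. The difference furthest from 0 against vehicle was -0.20 ± 0.10 (SE) with hPTH(1-34), with a limma adjusted p of 0.282.

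Pdgfd encodes the D chain, the other latent ligand, which acts through the beta receptor. Signals were 6.73, 6.84 and 6.78 in vehicle and 6.50, 6.40 and 6.54 with hPTH(1-34), all 3 below vehicle. They were 6.85, 6.68 and 6.69 with hPTH(1-31) and 6.57, 6.73 and 6.73 with PTH(1-36), groups that reached into the vehicle range. The truncated groups ran from 6.66 to 7.09 and overlapped vehicle. The hPTH(1-34) difference of -0.30 ± 0.10 (SE) missed the threshold in the limma fit, with an adjusted p of 0.0603. It passed under 2 other settings, at 0.0288 at the lowest, and did not under the rest, at up to 0.147. With any 1 array left out it did not pass, at 0.0841 to 0.201. In the order of means, only hPTH(1-34), at 6.48, and its neighbour PTH(1-36), at 6.68, did not overlap.

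Of the receptors, Pdgfra encodes the alpha receptor, which marks mesenchymal and fibroblast-like cells. Vehicle arrays read 10.24, 10.24 and 10.17. Signals were 10.43, 10.38 and 10.47 with hPTH(1-34), 10.40, 10.39 and 10.51 with hPTH(1-31), and 10.51, 10.42 and 10.47 with PTH(1-36). The 9 arrays of the intact analogs all lay above the 12 others, whose highest value was 10.35. Those others read 10.33, 10.27 and 10.21 with bPTH(3-34), 10.17, 10.19 and 10.18 with hPTH(7-34), and 10.35, 10.13 and 10.30 with bPTH(7-34), and overlapped vehicle. The share of all genes that separate these 9 arrays from the 12 was not computed. With PTH(1-36) Pdgfra rose by 0.25 ± 0.07 (SE), with a limma adjusted p of 0.0471. That call was lost when any 1 of the 6 arrays compared was left out (adjusted p 0.0658 to 0.132) and under 4 other settings (up to 0.290). The differences of +0.21 with hPTH(1-34) and +0.22 with hPTH(1-31) did not pass, with adjusted p of 0.0965 and 0.0847. Both passed under 2 other settings, a filter on dim genes and a variance prior that follows the signal. Under the rest they did not, at up to 0.285 and 0.318, and neither passed with any 1 array left out. In the order of means the intact groups, at 10.47, 10.43 and 10.43, overlapped each other, and the lowest of them did not overlap the next group, bPTH(3-34) at 10.27.

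Pdgfrb encodes the beta receptor, the receptor for the B and D chains. Its vehicle arrays read 10.04, 10.02 and 9.83. Signals were 9.15, 9.09 and 9.07 with hPTH(1-34), 9.23, 9.23 and 8.93 with hPTH(1-31), and 9.18, 9.22 and 8.97 with PTH(1-36). All 9 arrays lay below all 12 others, and the gap to the lowest of those was wider than the range within any group. The share of all genes with such a separation was not computed. With the truncated analogs the signals were 10.05, 10.09 and 10.04 for bPTH(3-34), 9.71, 9.86 and 9.78 for hPTH(7-34), and 9.88, 9.97 and 9.88 for bPTH(7-34), and each group overlapped vehicle or lay at its upper edge. The limma differences from vehicle were -0.86, -0.83 and -0.84 for hPTH(1-34), hPTH(1-31) and PTH(1-36), each ± 0.09 (SE), with adjusted p of 4.09e-06, 5.78e-06 and 6.41e-06. The 95% intervals were -1.06 to -0.66, -1.03 to -0.64 and -1.04 to -0.64. Counted from the largest fall, Pdgfrb ranked 117, 126 and 105 of 22180 genes in these contrasts. Pdgfrb was the only member called lower with all 3 intact analogs, and 2.48% of all genes were. The 3 contrasts share the vehicle arrays and so are not independent of each other.

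With the truncated analogs Pdgfrb lay nearer to vehicle than with the intact ones. Its differences from vehicle were +0.10 with bPTH(3-34) (95% interval -0.10 to 0.29), -0.18 with hPTH(7-34) (-0.38 to 0.02) and -0.05 with bPTH(7-34) (-0.25 to 0.14). Adjusted p in the limma fit ran from 0.646 to 0.998. These intervals exclude a fall of the size seen with any intact analog. In the order of means hPTH(7-34), at 9.78, overlapped neither bPTH(7-34) above it, at 9.91, nor hPTH(1-31) below it, at 9.13, and the 3 intact groups overlapped each other.

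**Figure D2:**
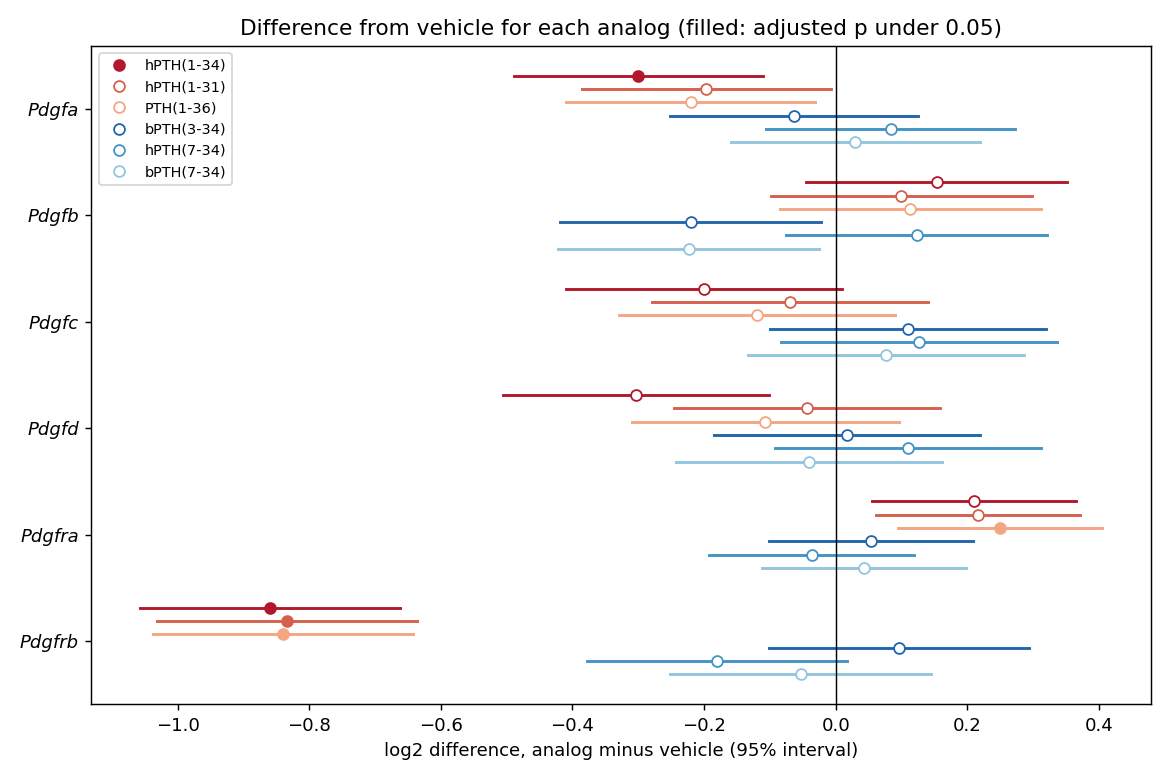
Difference from vehicle in log2 signal (x axis) for each of the 6 genes (rows) and each of the 6 analogs, with 95% intervals from the limma fit, filled points for an adjusted p under 0.05, and a vertical line at 0. The intact analogs' intervals for Pdgfrb lie between -1.06 and -0.64, away from those of every other gene.

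Counted over the family, 2 of 6 members were called with hPTH(1-34), where 8.64% of all genes were, and 1 of 6 with hPTH(1-31), where 8.7% were. With PTH(1-36) 2 of 6 were called, where 7.23% of all genes were. With bPTH(3-34), hPTH(7-34) and bPTH(7-34) the limma fit called 0 of 6 members, where 0%, 0.0721% and 0% of all genes were called. At an unadjusted p under 0.05 the truncated contrasts held 1, 0 and 1 members, Pdgfb in both bovine ones, where 5.92%, 8.19% and 5.19% of all genes passed. Groups that did not overlap vehicle were found for 4, 3 and 4 members with hPTH(1-34), hPTH(1-31) and PTH(1-36), where 23.4%, 22.1% and 20.5% of all genes did not overlap. They were found for 1 member, Pdgfb, with each of bPTH(3-34), hPTH(7-34) and bPTH(7-34), where 10.1%, 12.3% and 8.48% of all genes did not overlap. Pdgfb was also among the 4 members with PTH(1-36). Its vehicle arrays all read 5.62, so any group wholly on 1 side of that value was counted. The median difference of the 6 genes was -0.25, -0.06 and -0.11 with hPTH(1-34), hPTH(1-31) and PTH(1-36), beside medians of all genes from -0.02 to -0.01.

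How far the receptors changed unequally was measured within each array as the Pdgfrb signal minus the Pdgfra signal. This quantity does not show the direction of either gene, and most of its change lies in Pdgfrb. Only the change of this quantity between groups is read, because signals of different probe sets are not on a common scale of abundance. It averaged -0.25 ± 0.08 (SD, n = 3) in vehicle and -1.32 ± 0.15 (SD, n = 9) over the intact analogs. The 9 treated arrays ran from -1.58 to -1.16 and the vehicle arrays from -0.34 to -0.20, so the ranges did not meet. The difference was -1.07, with an exact two-sided permutation p of 0.00455, the smallest that the 220 arrangements of 12 arrays can give. All 9 intact arrays lay below vehicle for Pdgfrb and above it for Pdgfra, so the ranges of the difference could not meet. This p therefore adds no support beyond those separations, and the same holds for each intact analog alone. For single analogs the differences were -1.07 with hPTH(1-34), -1.05 with hPTH(1-31) and -1.09 with PTH(1-36), each at an exact permutation p of 0.1, the smallest that 3 against 3 arrays allow. They were +0.04 with bPTH(3-34), -0.14 with hPTH(7-34) and -0.10 with bPTH(7-34), with exact permutation p of 0.5, 0.2 and 0.4. Pooling the 3 intact analogs was chosen after the data were seen.

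**Figure D3:**
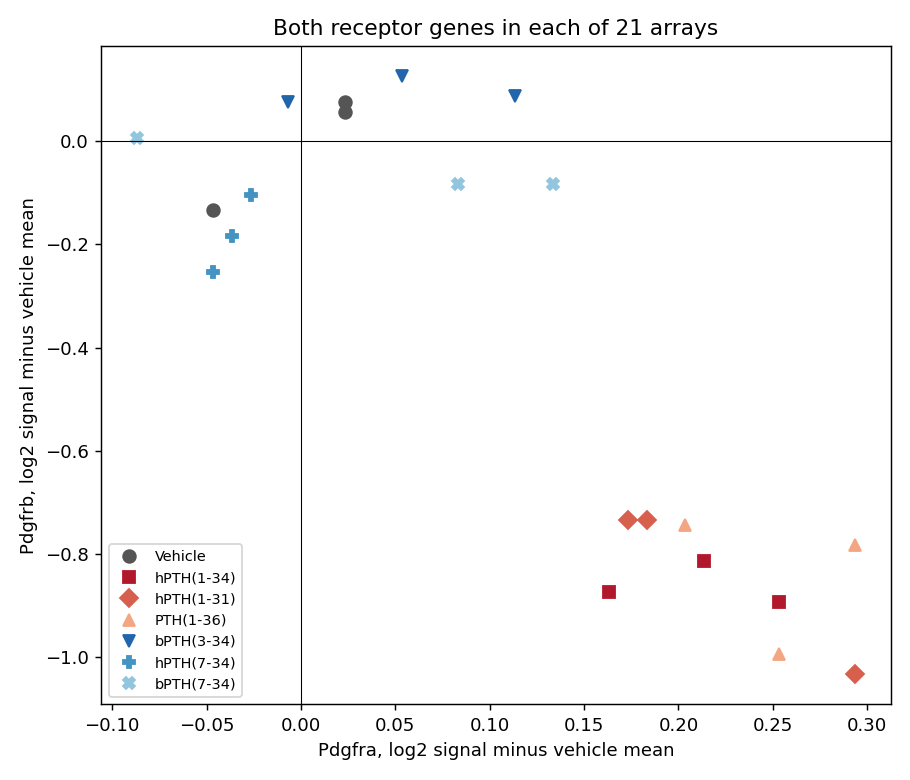
Pdgfra (x axis) against Pdgfrb (y axis), each as log2 signal minus the mean of the vehicle arrays, in each of the 21 arrays, with colour and shape for the treatment group and lines at 0. The 9 arrays of the intact analogs, whose signals are 10.38 to 10.51 for Pdgfra and 8.93 to 9.23 for Pdgfrb, lie at the lower right, apart from the other 12.

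Over the 21 arrays the Pearson correlation of Pdgfra with Pdgfrb was -0.83, and -0.91 over the 7 group means, while within groups it was -0.30. It is therefore a description of the group differences. Pdgfa and Pdgfc followed Pdgfrb over the 21 arrays, at 0.74 and 0.71, and within groups at 0.10 and 0.30. The arrays share their labelling and normalization, and these values carry no test.

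With the 9 intact arrays set against the 3 vehicle arrays in the same limma fit, 3 of 6 members were called, where 11.9% of all genes were. Pdgfrb fell by 0.84 ± 0.08 (SE, adjusted p = 2.57e-07), Pdgfa fell by 0.24 ± 0.07 (adjusted p = 0.0403), and Pdgfra rose by 0.23 ± 0.06 (adjusted p = 0.0176). In these 3 of 6 members all 9 treated arrays lay beyond all 3 vehicle arrays, as in 11% of all genes. The call of Pdgfa was lost without any 1 of 9 of the 12 arrays (adjusted p up to 0.193). That of Pdgfra was lost without any of the 3 vehicle arrays (up to 0.0892). Pdgfb, Pdgfc and Pdgfd differed by +0.12, -0.13 and -0.15, with adjusted p of 0.396, 0.392 and 0.275.

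The intact arrays were also set against the 6 arrays of bPTH(3-34) and hPTH(7-34), the truncated peptides given at 100 nM, which leaves vehicle out. In this limma contrast 5 of 6 members were called, where 20.3% of all genes were. Pdgfrb fell by 0.80 (adjusted p = 1.23e-08), and all 9 intact arrays lay below all 6 truncated ones. Pdgfc, the latent alpha-receptor ligand, fell by 0.25 (adjusted p = 0.00933) with the same separation of 9 from 6 arrays. Pdgfa fell by 0.25 (adjusted p = 0.00443) and Pdgfd fell by 0.21 (adjusted p = 0.0190), with arrays that overlapped. Pdgfra rose by 0.22 (adjusted p = 0.00274), with all 9 intact arrays above the 6. Separation of all 9 from all 6 arrays was thus found in 3 of 6 members, and in 8.93% of all genes. Pdgfb, at +0.17, did not pass (adjusted p = 0.0565), although it did without the hPTH(1-31) replicate 3 array (0.0124) or the hPTH(1-34) replicate 2 array (0.0259). Without other arrays its adjusted p reached 0.131, and under other settings it ran from 0.0291 to 0.207. The call of Pdgfd was lost without the hPTH(7-34) replicate 1 array, at 0.0713.

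Pairs of the 5 analogs given at 100 nM were then compared directly, 10 pairs in all, with p-values adjusted over all genes within each pair. Of the 60 contrasts of a member in a pair, 17 were called, and all 17 lay in the 6 pairs of an intact with a truncated analog. In each of those 6 pairs 7.21% to 10.9% of all genes were called, and in the remaining pairs 0% to 0.0496%. The placing of the member calls thus follows that of all genes. Each of the 6 members was called in at least 1 pair. For Pdgfrb all 6 pairs of an intact with a truncated analog were called, and these calls were kept when any 1 array was left out. Each of the 11 calls of the other 5 members was lost without at least 1 array, and 8 of them were also lost under another setting.

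Human PTH(7-34) and hPTH(1-34) differ, by their names, in the residues at the amino terminus that hPTH(7-34) lacks. Between these, 5 of 6 members were called, where 10.9% of all genes were. With hPTH(7-34) Pdgfrb was higher by 0.68 (limma adjusted p = 6.42e-05), Pdgfd by 0.41 (0.00812), Pdgfa by 0.38 (0.00866) and Pdgfc by 0.33 (0.0419), and Pdgfra was lower, at -0.25 (0.0380). Pdgfa lost its call without the hPTH(7-34) replicate 3 array (0.0501), and Pdgfd without the hPTH(7-34) replicate 1 array (0.0589). Pdgfc lost it without any 1 of 5 of the 6 arrays (up to 0.144) and Pdgfra without any 1 of the 6 (up to 0.121).

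Bovine PTH(3-34) differs from hPTH(1-34) in species as well as in the first residues. Here 3 of 6 members were called, where 9.32% of all genes were. With bPTH(3-34) Pdgfrb was higher by 0.96 (limma adjusted p = 1.09e-06) and Pdgfd by 0.32 (0.0437), and Pdgfb was lower, at -0.37 (0.0154). Pdgfc was at +0.31 and missed the threshold (0.0601), although it passed under 3 other settings (0.0172 at the lowest). Under the rest its adjusted p reached 0.115, and with single arrays left out 0.192. The Pdgfd call was lost without any 1 of the 6 arrays (up to 0.159), and the Pdgfb call without any 1 of 3 of them (up to 0.0772).

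Against hPTH(1-31), 2 of 6 members were called with bPTH(3-34), where 9.14% of all genes were, and 2 of 6 with hPTH(7-34), where 10.4% were. The former were Pdgfrb at +0.93 and Pdgfb at -0.32, and the latter Pdgfrb at +0.65 and Pdgfra at -0.25. Against PTH(1-36), 2 of 6 were called with bPTH(3-34), where 7.21% of all genes were, and 3 of 6 with hPTH(7-34), where 8.49% were. The former were Pdgfrb at +0.94 and Pdgfb at -0.33, and the latter Pdgfrb at +0.66, Pdgfa at +0.30 and Pdgfra at -0.29. In the limma fit adjusted p was 0.000107 or lower for the 4 Pdgfrb contrasts and 0.0200 to 0.0435 for the other 5. Those 5 calls were each lost without any 1 of 4 to 6 of the 6 arrays compared (adjusted p up to 0.180).

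Among the intact analogs 0 of 6 members were called in any of the 3 pairs by limma. The background was 0% for hPTH(1-31) against hPTH(1-34), and 0.00451% for PTH(1-36) against each of the others. At an unadjusted p under 0.05 there was 1 member, Pdgfd, in the first of these pairs, where 4.48% of all genes passed. There were 0 for PTH(1-36) against hPTH(1-34) and against hPTH(1-31), where 6.42% and 5.67% of all genes did. For Pdgfrb the differences were +0.03 (95% interval -0.17 to 0.22), +0.02 (-0.18 to 0.22) and -0.01 (-0.20 to 0.19), so the intervals stay within 0.22 of 0 for these 3 peptide lengths. Pdgfd was higher with hPTH(1-31) than with hPTH(1-34) by 0.26 in the fit (95% interval 0.06 to 0.46), with an adjusted p of 0.999. The corresponding Pdgfd difference of PTH(1-36) was +0.20 (-0.01 to 0.40).

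Between the truncated peptides, hPTH(7-34) and bPTH(3-34), 0 of 6 members were called by limma, where 0.0496% of all genes were. At an unadjusted p under 0.05 there were 2, Pdgfb and Pdgfrb, where 5.07% of all genes passed. Pdgfb was at +0.34 (95% interval 0.15 to 0.54, adjusted p = 0.536) and Pdgfrb at -0.28 (-0.47 to -0.08, adjusted p = 0.819). Pdgfra was at -0.09 (-0.25 to 0.07, adjusted p = 1). All 3 arrays of one peptide lay beyond those of the other for these 3 of 6 members, as in 10% of all genes.

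**Figure D4:**
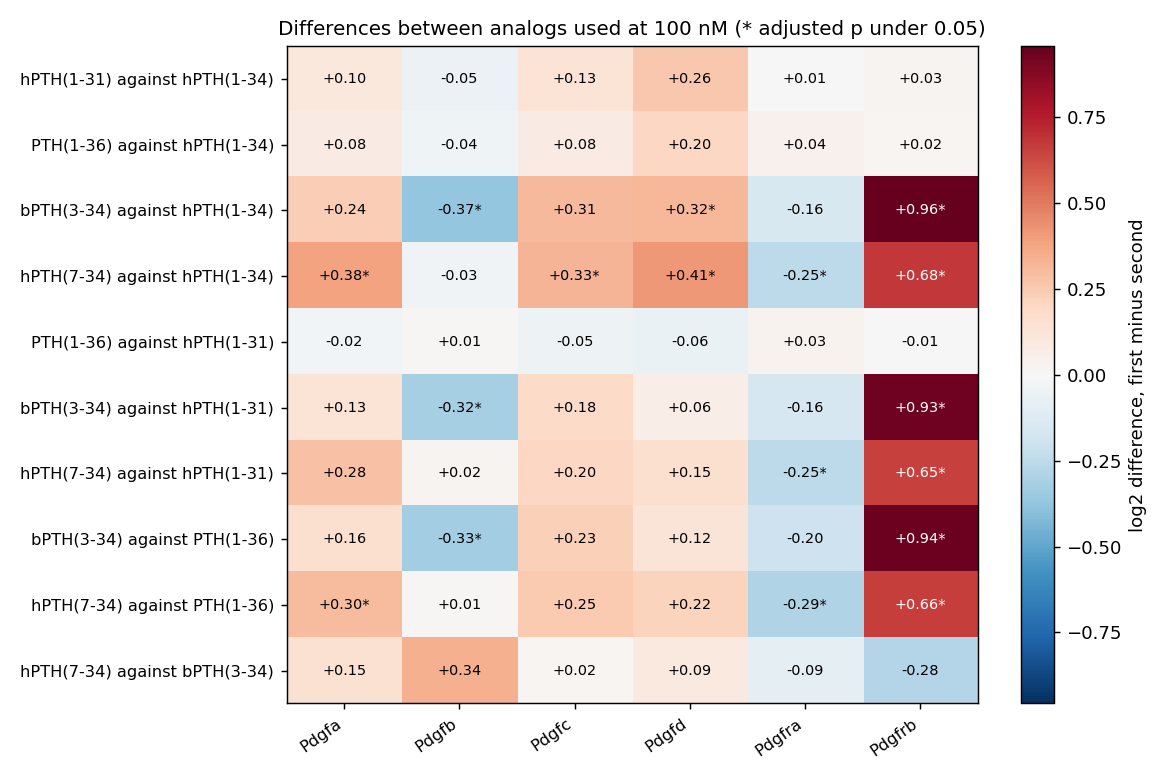
Log2 difference between analogs given at 100 nM (colour and number) for each gene (columns) in each of the 10 pairs (rows); an asterisk marks cells that passed the limma test. All 17 asterisks fall in the 6 pairs of an intact with a truncated analog, and the Pdgfrb column holds 6 of them. Of all genes, 7.21% to 10.9% were called in each of these 6 pairs and 0% to 0.0496% in the remaining pairs.

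Genes around the receptors were followed in 6 lists, of which 79 of 86 genes were measured. With hPTH(1-34) 16 rose and 6 fell, with hPTH(1-31) 17 and 6, and with PTH(1-36) 14 and 8. That is 27.8%, 29.1% and 27.8% of the 79, beside the backgrounds of 8.64%, 8.7% and 7.23%. The lists were chosen with earlier results of these data known, and the background also holds dim genes. The excess over the background therefore cannot be read as a result about the lists. With hPTH(7-34) 1 of 79 was called, where 0.0721% of all genes were, and with each bovine peptide 0 were, where 0% were.

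In the VEGF branch of the ligand family, 5 genes were measured. With each intact analog 1 rose, where 8.64%, 8.7% and 7.23% of all genes were called. That gene was Vegfa, the main endothelial growth factor, at +0.64, +0.75 and +0.59 with hPTH(1-34), hPTH(1-31) and PTH(1-36). Vegfc, a lymphatic growth factor, fell with hPTH(1-31) alone, at -0.39 (limma adjusted p = 0.0280). Vegfd, another lymphatic growth factor, was at -0.35, -0.23 and -0.22 and was not called. Among 4 genes akin to the receptors, Kit, Csf1r, Flt3 and Pdgfrl, none was called with any intact analog, and adjusted p ran no lower than 0.148. At 10.20 in vehicle the signal of Csf1r, the macrophage growth factor receptor, was at -0.09, -0.06 and -0.17.

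Of 11 genes that process or hold the ligands, 1 rose with each intact analog, where 8.64%, 8.7% and 7.23% of all genes were called. The list count is thus near the share of all genes. The gene that rose was Nrp1, a co-receptor that binds several growth factors, at +0.48, +0.52 and +0.49. Plat, the tissue plasminogen activator that cuts the latent C chain, was at -0.40, -0.37 and -0.14, with a limma adjusted p of 0.0501 at the lowest. A2m, a protease inhibitor that also binds PDGF, was not called against vehicle in any group, and its value furthest from 0 was -0.44 with hPTH(7-34) (adjusted p = 0.179).

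Of 27 measured adaptors and effectors, 2 rose and 3 fell with hPTH(1-34) and with hPTH(1-31), and 2 rose and 4 fell with PTH(1-36). The shares of all genes called with these analogs were 8.64%, 8.7% and 7.23%. Pik3r1 and Pik3r2, regulatory subunits of the phosphoinositide 3-kinase that docks on the receptors, fell. Pik3r1 was at -0.55, -0.66 and -0.62 and Pik3r2 at -0.45, -0.47 and -0.39. Map2k1, the kinase that activates ERK, rose by 0.78, 0.65 and 0.70, and the transcription factor Stat3 by 0.69, 0.73 and 0.53. Plcg1, a phospholipase that docks on the receptors, fell too, at -0.44, -0.34 and -0.36.

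Negative regulators held only rises among their calls, in 3, 4 and 3 of 12 measured genes. The shares of all genes called in either direction were 8.64%, 8.7% and 7.23%. Ptpn1 and Ptpn2 are tyrosine phosphatases known to act on PDGF receptors, and Socs3 restrains cytokine signals. Ptpn1 rose by 0.74, 0.81 and 0.71, Ptpn2 by 0.44, 0.48 and 0.46, and Socs3 by 0.68, 0.78 and 0.51. Ptprj, another phosphatase of the beta receptor, was at +0.13, +0.09 and -0.02 and was not called. The Sprouty genes Spry1, Spry2 and Spry4, inhibitors of signals downstream of receptor kinases, were not called either.

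Of 20 genes known to respond early to PDGF in fibroblasts, 9 rose and 3 fell with hPTH(1-34), 9 and 2 with hPTH(1-31), and 7 and 4 with PTH(1-36). The shares of all genes called with these analogs were 8.64%, 8.7% and 7.23%. Dusp1, a MAP kinase phosphatase, rose by 0.73, 0.88 and 0.62, the AP-1 gene Junb by 0.77, 0.90 and 0.53, and Ier3 by 0.61, 0.73 and 0.38. Egr1, a transcription factor among the first to respond to serum, fell by 0.40, 0.45 and 0.42. The list thus changed in both directions, and many of its genes also answer other stimuli. The chemokine gene Ccl2 was the single gene of the 6 lists called with hPTH(7-34), at +1.16 (limma adjusted p = 0.0155), beside +1.15 with hPTH(1-34). The related gene Ccl7 was at +0.79 with hPTH(7-34) and did not pass (adjusted p = 0.0980).

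**Figure D5:**
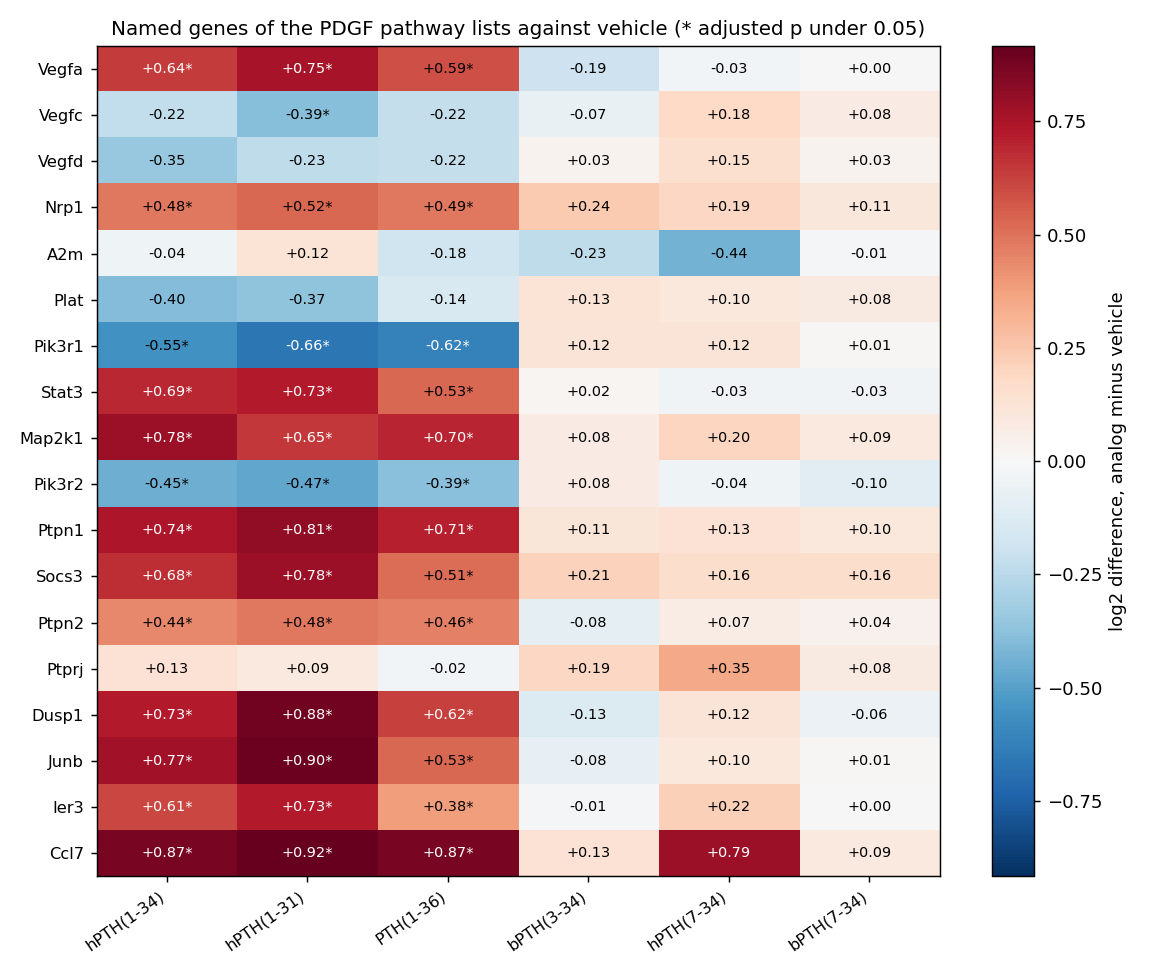
Log2 difference from vehicle (colour and number) of 18 list genes (rows), without Ccl2, with each of the 6 analogs (columns); an asterisk marks a limma adjusted p under 0.05. Pik3r1 and Pik3r2 are negative with asterisks for all 3 intact analogs, Ptpn1, Map2k1, Stat3 and Dusp1 positive, and the truncated columns hold no asterisk among these 18 genes.

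Markers of other cell types that could bear on Pdgfrb were read beside it. Of 10 mural genes (pericytes and smooth muscle), 0 rose and 3 fell with hPTH(1-34), 1 rose and 3 fell with hPTH(1-31), and 2 rose and 2 fell with PTH(1-36). The shares of all genes called with these analogs were 8.64%, 8.7% and 7.23%, and they apply to each marker list here. Notch3 was at -0.57, -0.63 and -0.46 and Cspg4 at -0.42, -0.52 and -0.40, all called, and Mcam rose with hPTH(1-31) and PTH(1-36), by 0.59 and 0.51. Acta2, at 12.29 in vehicle, was at -0.25, -0.20 and -0.20 and was not called. The mean of the 10 genes per array was 6.35 to 6.47 in vehicle, 6.25 to 6.36 with hPTH(1-34), 6.22 to 6.32 with hPTH(1-31) and 6.34 to 6.46 with PTH(1-36). It was 6.27 to 6.33 with bPTH(3-34), 6.28 to 6.34 with hPTH(7-34) and 6.33 to 6.38 with bPTH(7-34). It lay wholly below vehicle with hPTH(1-31), bPTH(3-34) and hPTH(7-34) and overlapped vehicle with the others. How often means of other gene lists do so was not computed. Of 13 macrophage and osteoclast genes 1 rose with hPTH(1-34) (Fcgr1), 1 with hPTH(1-31) (Mmp9) and 0 with PTH(1-36), and none fell. Their mean per array was 7.66 to 7.82 in vehicle and overlapped it with each intact analog (7.68 to 7.86 over the 9 arrays). Of 8 endothelial genes Tek fell with all 3 and Kdr rose with hPTH(1-31) and PTH(1-36), and the mean of the 8 was 3.82 to 3.88 in vehicle and 3.55 to 3.87 over the intact arrays. RMA signals have no value that stands for 0, so absence of a marker cannot be read from them. The part of any of these in the Pdgfrb result was not tested. Of 7 measured osteoblast genes, Pth1r and Sp7 fell with each intact analog, and Alpl rose with hPTH(1-34) and hPTH(1-31).

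Genes with the pattern most like each called member were ranked by Pearson correlation over the 21 arrays, among 2618 candidate genes. For Pdgfrb these were AW551984 at 0.977, Sorbs2 at 0.974 and Actn1, a gene of actin-crosslinking alpha-actinin, at 0.972. Their differences with hPTH(1-34) were -0.78, -1.19 and -0.32, so the likeness is of shape and not of size. For Pdgfra they were Gpd2 at 0.918, the retinoic acid-forming enzyme gene Aldh1a3 at 0.911 and Nxn at 0.907. Pdgfa was followed by Cpt1a, which brings fatty acids into mitochondria, at 0.863, Nacc2 at 0.858 and Cyria at 0.857. For Pdgfb the nearest were Kcnn4 at 0.823, Plk2 at 0.791 and Sestd1 at 0.776. The groups drive these correlations, and they carry no test.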

How the data were processed

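Total RNA (100 ng) of 21 cultures was labelled for Mouse Gene 2.0 ST arrays. The authors deposited 1 table of signals; per the submitters' processing notes it was made with RMA in Affymetrix Expression Console, whose versions and settings are not given in the sources used here. The deposited values were read as log2 from RMA's usual output and their range, so each difference and fold rests on that reading. RMA makes arrays comparable in overall distribution and can hide a shift shared by all genes.

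Of 41345 rows, 23521 carried 1 gene symbol in the platform annotation, 1814 several and 16010 none. For each of 22180 genes the row with the highest mean was kept. All 7 groups entered 1 limma fit (limma 3.58.1, R 4.3.3; lmFit and eBayes) with 14 residual degrees of freedom, no covariates and no filter, and p-values were Benjamini-Hochberg adjusted over all genes within a contrast. Receptor differences were tested by exact permutation. The script was tested on simulated data. Precision is limited by the number of arrays, which carry no count of reads. No array was left out.

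The members and lists were chosen with earlier results of these data known. All 6 members were reported; other genes were named by rule: from each pathway list up to 4 genes with the smallest p among those called in the F test, and the 3 genes most correlated with each member called in it. Further list genes were named after their values were seen. Replicate numbers were not used to pair the arrays, since the labels do not say that a number marks 1 preparation across treatments. Deviations of arrays sharing a number correlated at a median of 0.034 over 63 pairs, beside -0.013 over 126 pairs of other numbers. The highest value, 0.161, was between arrays of the same number, so a weak pairing may be present. Alternatives were another normalization, a filter, another row rule, another variance prior, adjustment over all rows, only the 2 groups compared, the replicate number as a block, and each array left out.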

Additional observations from a re-analysis of the deposited data

How the results depend on the processing

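Calls of Pdgfrb with each intact analog held under every alternative and every left-out array tried, and no called value changed sign. Of 36 results of a member against vehicle, 31 kept their side of the threshold throughout. With hPTH(1-34) the count of called members went from 2 to 1 after a second quantile normalization, with adjustment over all rows and with only the 2 groups fitted. It went to 4 with a filter at the median of all values and with a trended, robust prior, which added Pdgfd and Pdgfra. With hPTH(1-31) the count of 1 became 2 under those same 2 settings. With PTH(1-36) the count of 2 became 1 with array medians subtracted, after quantile normalization, with all rows and with only the 2 groups. Adjustment over all rows, an alternative chosen after seeing the data for these, left 10 of 17 pair calls and 2 of 4 F-test calls. Fitting only 2 groups called 936, 928 and 606 genes in all with hPTH(1-34), hPTH(1-31) and PTH(1-36), where the fit of 7 groups called 1917, 1930 and 1603, and 0 where it called 16 with hPTH(7-34).

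With single arrays left out, the count was 1 throughout for hPTH(1-34), hPTH(1-31) and PTH(1-36) and 0 for the truncated peptides. It was 1 to 3 for the intact arrays against vehicle, 4 to 6 against the truncated arrays, 11 to 17 over the pairs and 2 to 4 in the F test. The receptor difference lay between -1.11 and -1.04. With the replicate number as a block, member counts stayed at 2, 1, 2, 0, 0 and 0 against vehicle, 17 over the pairs and 4 in the F test, and none of 124 calls or counts changed sides. With 3 arrays a group, differences near 0.3 sat close to the threshold.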
